A study of Mus musculus with 17 samples.

Results

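Inflammatory cytokines, a pair of chemokines, adhesion molecules and feedback genes of the NF-kB pathway were followed in the brown fat of mice without and with Noct (Nocturnin), a gene under circadian control. Brown fat burns fuel to make heat. The 10 members (Il6, Tnf, Il1b, Ccl2, Cxcl1, Icam1, Vcam1, Nfkbia, Tnfaip3 and Relb) were taken by gene symbol from the 21982 genes of the deposited count table, and all 10 were found. They were measured by mRNA sequencing, 1 library per mouse, in 17 mice labelled C57BL/6. The groups were 4 Noc-/- mice held for 4 h at 6 °C, 4 Noc-/- mice held at 22 °C, 5 Noc+/+ mice held for 4 h at 6 °C and 4 Noc+/+ mice held at 22 °C. All mice were single-housed without food for these 4 h, and knockouts and wild types were littermates. Males made up 3 of 4 knockouts in the cold, 3 of 4 knockouts at 22 °C, 1 of 5 wild types in the cold and 1 of 4 wild types at 22 °C. Labelled ages ran from 11.14 to 23.57 with no unit, while the series as a whole is described as 10 to 20 weeks old. The labels name a homozygous genotype and no conditional allele, and do not state which part of Noct is missing.

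NF-kB is a family of transcription factors that IkB proteins hold in the cytoplasm. Tumour necrosis factor, interleukin 1 and microbial products activate a kinase complex that marks IkB for destruction, and the freed factor switches on cytokines, chemokines, adhesion molecules and its own inhibitors. In brown fat this pathway is known from obesity, where inflammatory cytokines dampen the induction of heat-producing genes.

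Library totals ran from 18410748 to 47598200 counts. The targeted gene separated the genotypes: Noct lay between 3.37 and 34.2 CPM (reads scaled to library size by the TMM method) in the 8 knockouts and between 91.5 and 457 CPM in the 9 wild types. The tissue label was checked against 5 brown adipocyte markers, of which Ucp1 reached 3684 CPM or more in every library. "Rose" and "fell" stand for an adjusted p below 0.05 in edgeR's quasi-likelihood test (Benjamini-Hochberg over 12486 tested genes, labelled sex as a covariate), log2 fold changes are ± SE, and levels are TMM-scaled CPM as mean ± SD over mice unless stated.

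The members formed 2 classes of abundance. The cytokines and chemokines Il6, Tnf, Il1b, Ccl2 and Cxcl1 were close to the detection limit in every group and did not pass the low-count filter, so no fold change is given for them. The other 5, Icam1, Vcam1, Nfkbia, Tnfaip3 and Relb, had reads in all 17 libraries and were tested. In the cold, Vcam1 rose and Tnfaip3 fell in both genotypes, Icam1 rose in knockouts, and Nfkbia rose and Relb fell in wild types. None of the 5 differed between genotypes at either temperature past the threshold.

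Per length, on the authors' RPKM scale and averaged over the 17 libraries, Nfkbia was the most abundant member at 15.3 ± 4.37 RPKM, above 94.0% of the genes in the table. Next came Relb at 0.992 ± 0.300 RPKM, Vcam1 at 0.779 ± 0.235 and Icam1 at 0.600 ± 0.231, which lie within one another's SD as neighbours. Tnfaip3 averaged 0.163 ± 0.0753 RPKM. The chemokines Cxcl1 and Ccl2 (0.0447 ± 0.0468 and 0.0391 ± 0.0329 RPKM) and the cytokines Il1b and Tnf (0.0314 ± 0.0320 and 0.0291 ± 0.0421 RPKM) did not differ from one another beyond their spread. Il6 was the lowest member, at 0.00215 ± 0.00638 RPKM.

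Il6 encodes interleukin 6, a cytokine that fat and immune cells release in inflammation and that exercise and adrenergic stimulation also raise. Its 3 reads in the whole series came from wild type 6 °C replicate 5, with 1 read, and wild type 22 °C replicate 1, with 2 reads. The knockouts had 0 reads among 116051814 counts at 6 °C and 0 among 117298192 at 22 °C, which allows up to 0.0259 and 0.0256 CPM of the raw total. Il6 mRNA was thus at or below the floor of 3 reads over the group in all 4 groups. Intervals and floors here cover counting error only, since the reads carry no molecular identifiers.

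Tnf, the founding inflammatory ligand of the pathway, had raw counts of 0, 0, 0 and 4 in knockouts at 6 °C, 1, 0, 4 and 0 in knockouts at 22 °C, 0, 0, 0, 1 and 1 in wild types at 6 °C and 7, 7, 0 and 2 in wild types at 22 °C. Il1b, which encodes interleukin 1 beta, had raw counts of 4, 0, 3 and 1 in knockouts at 6 °C, 3, 1, 0 and 4 in knockouts at 22 °C, 0, 2, 0, 0 and 1 in wild types at 6 °C and 7, 2, 1 and 3 in wild types at 22 °C. The groups overlapped for both genes, and no library held more than 7 reads of either.

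The chemokines were as scarce. Ccl2, which draws in monocytes, had raw counts of 0, 1, 1 and 2 in knockouts at 6 °C, 3, 1, 1 and 0 in knockouts at 22 °C, 0, 2, 0, 3 and 1 in wild types at 6 °C and 3, 5, 0 and 2 in wild types at 22 °C. Cxcl1, which draws in neutrophils, had raw counts of 0, 2, 0 and 3 in knockouts at 6 °C, 2, 3, 0 and 1 in knockouts at 22 °C, 2, 2, 5, 2 and 1 in wild types at 6 °C and 13, 5, 2 and 2 in wild types at 22 °C. The groups overlapped for both chemokines.

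**Figure D1:**
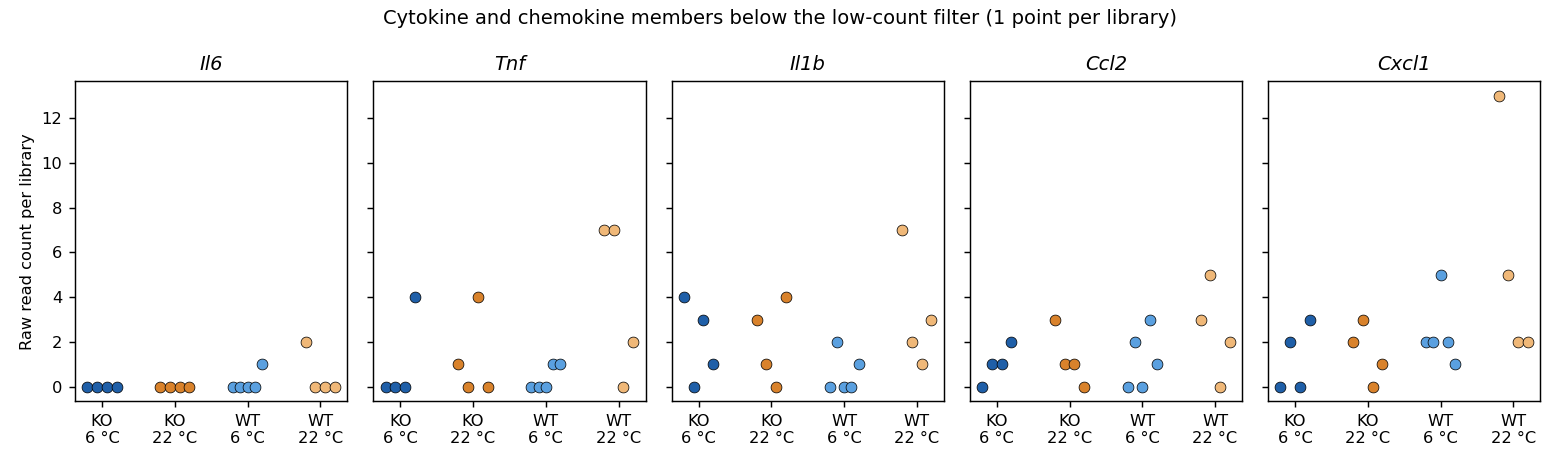
Raw read counts per library (vertical axis) of Il6, Tnf, Il1b, Ccl2 and Cxcl1, with 1 point per mouse in the 4 groups. Most libraries hold 0 to 5 reads of each gene, and the highest point is the 13 reads of Cxcl1 in wild type 22 °C replicate 1.

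Summed over these 5 genes, the whole series held 132 reads. Knockouts had 21 reads at 6 °C and 24 at 22 °C, or 0.181 CPM of the raw total (exact Poisson 95% interval 0.112 to 0.277) and 0.205 CPM (0.131 to 0.304). Wild types had 24 reads at 6 °C and 63 at 22 °C, or 0.166 CPM (0.107 to 0.247) and 0.453 CPM (0.348 to 0.580). Wild type 22 °C replicate 1 alone held 32 of these 63 reads, and the other wild types at 22 °C held 31, or 0.297 CPM (0.202 to 0.421), an interval that overlaps that of the cold wild types. With no filter on low counts edgeR gave these 5 genes adjusted p values of 0.178 to 0.779 for the cold response in wild type. In knockouts they were 0.959 to 1. All 5 wild-type estimates were negative, and those in knockouts had mixed signs. None passed, so neither a rise nor a fall in the cold was detectable at this depth.

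Wild type 22 °C replicate 1 also held the highest sum of 7 neutrophil markers, 1.24 CPM or 49 reads. That sum ran from 0.234 to 0.985 CPM in knockouts at 6 °C, 0.458 to 0.747 in knockouts at 22 °C, 0.155 to 0.845 in cold wild types and 0.361 to 1.24 in the 22 °C wild types. Of the defining neutrophil markers, Ly6g had 0 reads in all 17 libraries. Wild type 22 °C replicate 1 likewise held the highest mast cell marker sum of the 17 libraries, 19.2 CPM. Its T and B cell marker sum, 2.46 CPM, was also the highest, and its macrophage marker sum, 76.5 CPM, was the highest at 22 °C. The part of any of these cells in the cytokine counts was not tested.

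In knockouts 2 of the 5 tested members rose and 1 fell in the cold, where 21.6% of all tested genes were called, 11.6% higher and 10% lower. In wild types 2 rose and 2 fell, where 27.6% of all tested genes were called, 14.3% higher and 13.3% lower. DESeq2 called 4 in each genotype, where it called 3075 of 12486 tested genes in knockouts and 3862 in wild types. For the members limma on log2(RPKM + 1) called 3 in knockouts and 4 in wild types. The tested members moved in both directions. Their median log2 change was 0.57 in knockouts, the value of Nfkbia, and 0.52 in wild types, the value of Icam1. Neither of these values passed. Over all tested genes the median was -0.02 in knockouts and -0.03 in wild types. The 2 comparisons contrast different libraries, but they share the sex coefficient and the estimate of the spread of 1 model. On the authors' RPKM, scaled to total counts, limma called 975 genes higher and 1387 lower in knockouts and 881 higher and 3115 lower in wild types, where it moved the median of all tested genes to -0.11 log2. edgeR's counts were 1446 higher and 1251 lower in knockouts, and 1786 higher and 1664 lower in wild types. No tested member changed sign in either cold comparison under any scaling tried.

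**Figure D2:**
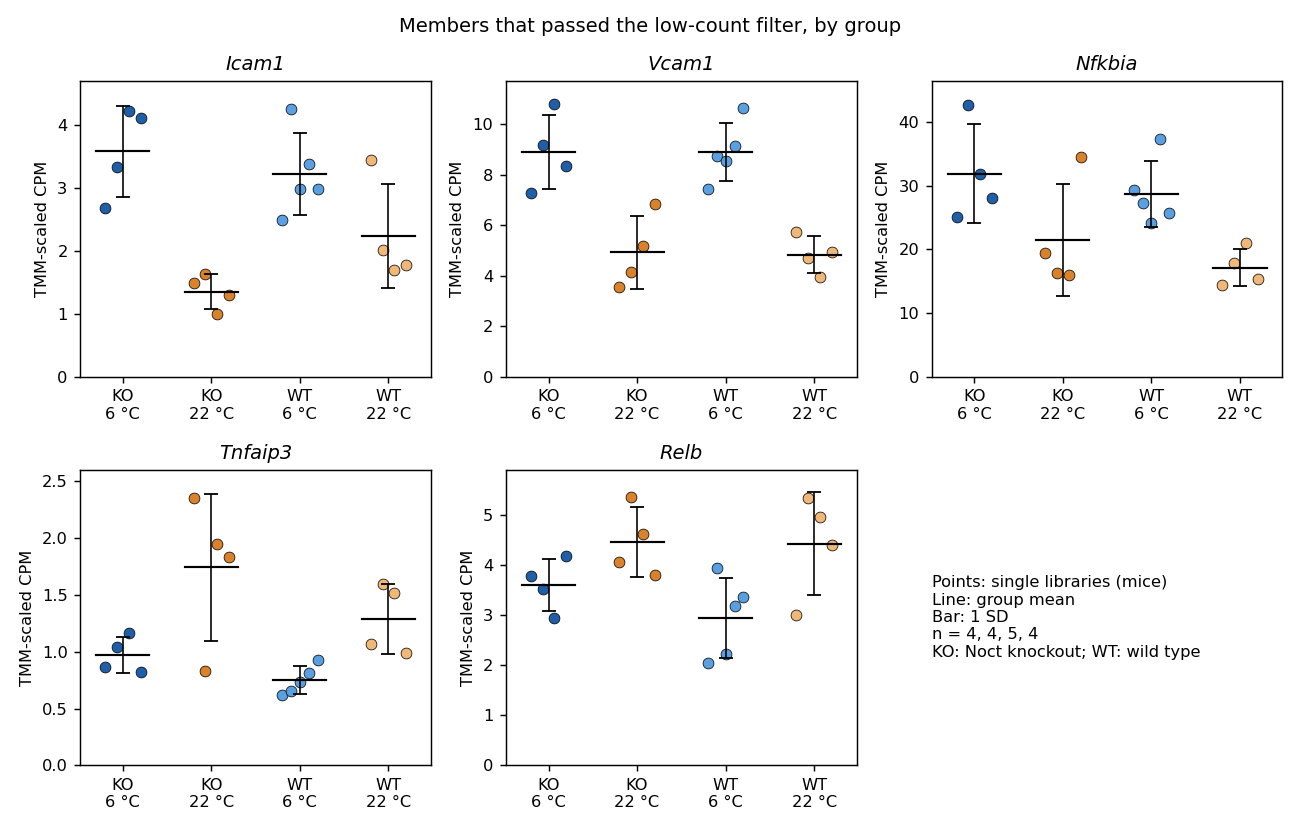
TMM-scaled CPM (vertical axes, from 0) of Icam1, Vcam1, Nfkbia, Tnfaip3 and Relb in each library, with the group mean and 1 SD, for knockouts and wild types at 6 °C and 22 °C. Every cold point of Vcam1 lies above every 22 °C point of its genotype, and 1 wild type at 22 °C stands at 3.45 CPM of Icam1, within the range of the cold mice.

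Vcam1 encodes an adhesion molecule of vessel walls and stromal cells that binds the integrin Itga4/Itgb1 on leukocytes. Its level was 7.28, 9.17, 10.8 and 8.34 CPM in knockouts at 6 °C, against 3.56, 4.14, 5.16 and 6.83 CPM in knockouts at 22 °C. It was 7.42, 8.74, 8.54, 9.14 and 10.6 CPM in wild types at 6 °C, against 5.73, 4.71, 3.93 and 4.93 CPM in wild types at 22 °C. Every cold mouse lay above every 22 °C mouse of its genotype. Among all tested genes the groups did not overlap in 20.2% in knockouts, 10.8% with the cold higher, and in 25.8% in wild types, 12.9% with the cold higher. Vcam1 rose by 0.86 ± 0.18 log2 in knockouts (edgeR adjusted p = 0.00272) and by 0.89 ± 0.17 in wild types (adjusted p = 0.00121). In this bulk tissue, more cells of a type and more RNA per cell cannot be told apart.

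Icam1 encodes an adhesion molecule of endothelial and immune cells that binds the leukocyte integrin Itgal/Itgb2. Its level was 2.67, 3.33, 4.23 and 4.10 CPM in knockouts at 6 °C, against 1.49, 1.64, 0.993 and 1.29 CPM in knockouts at 22 °C. All 4 cold knockouts lay above all 4 knockouts at 22 °C, as in 10.8% of all tested genes. Icam1 rose in knockouts by 1.38 ± 0.25 log2 (edgeR adjusted p = 0.000998), a fold of 2.60. In wild types Icam1 was 2.49, 4.25, 2.99, 3.38 and 2.98 CPM at 6 °C, against 3.45, 2.02, 1.69 and 1.77 CPM at 22 °C. These groups overlapped through wild type 22 °C replicate 1, at 3.45 CPM, and the value of 0.52 ± 0.23 log2 did not pass (adjusted p = 0.0970). Without that library the other wild types at 22 °C averaged 1.83 CPM, and Icam1 rose in wild types too (0.86, adjusted p = 0.00736). It is the library that also held the most Tnf, Il1b, Il6 and Cxcl1 reads, with Tnf tied with replicate 2.

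Icam1 was also the member with the largest fitted genotype difference at 22 °C. Knockouts averaged 1.35 ± 0.279 CPM and wild types 2.23 ± 0.820 CPM (n = 4 each), and all 4 knockouts lay below all 4 wild types, a pattern found in 1.93% of all tested genes, with 4.22% showing no overlap in either direction. The difference of -0.81 ± 0.27 log2 had an unadjusted p of 0.00735 and an adjusted p of 0.998 in edgeR's quasi-likelihood test. At 6 °C knockouts averaged 3.58 ± 0.725 CPM (n = 4) and wild types 3.22 ± 0.655 CPM (n = 5), a difference of 0.04 ± 0.25 log2 (edgeR adjusted p = 0.999). The cold responses of the genotypes differed by 0.85 ± 0.34 log2, knockout minus wild type, with an unadjusted p of 0.0209 and an adjusted p of 1.00. Both values rested in part on wild type 22 °C replicate 1. Without it the genotype difference at 22 °C was -0.53 ± 0.22 log2 (edgeR adjusted p = 0.977) and the cold responses differed by 0.53 ± 0.28 (adjusted p = 1.00). An Icam1 response particular to knockouts is therefore not shown.

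Endothelial and macrophage markers were read beside the adhesion molecules. The summed level of 8 endothelial markers averaged 460 ± 71.2 CPM in knockouts at 6 °C, 425 ± 19.7 in knockouts at 22 °C, 462 ± 48.1 in wild types at 6 °C and 398 ± 51.4 in wild types at 22 °C. In the cold 2 of the 8 rose and 1 fell in knockouts, and 2 rose and 2 fell in wild types. Among all tested genes 21.6% were called in knockouts and 27.6% in wild types. The median log2 change of the 8 was -0.10 in knockouts, with 3 positive, and -0.05 in wild types, with 4 positive. Pecam1 rose by 0.36 ± 0.13 log2 in knockouts and 0.53 ± 0.12 in wild types, while Cdh5, which seals endothelial junctions, read -0.09 ± 0.10 and 0.00 ± 0.09. The 9 macrophage markers summed to 56.2 to 95.5 CPM in knockouts at 6 °C, 47.9 to 55.1 in knockouts at 22 °C, 52.1 to 76.4 in cold wild types and 53.8 to 76.5 in the 22 °C wild types. Of these 9, Cd163 alone passed in edgeR, rising in both genotypes, and DESeq2 called 2 in knockouts and 1 in wild types. The median log2 change of the 9 was 0.40 in knockouts, with 8 positive, and -0.08 in wild types, with 4 positive. Fibroblast markers summed to 141 to 225 CPM in knockouts at 6 °C, 172 to 216 in knockouts at 22 °C, 157 to 196 in cold wild types and 164 to 197 in the 22 °C wild types. Mesothelial markers, of which Upk3b and Wt1 had 0 reads throughout, stayed at or below 3.76 CPM. All 4 cold knockouts lay above all knockouts at 22 °C in the macrophage sum, as they did in Icam1, and its part in the Icam1 result was not tested.

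**Figure D3:**
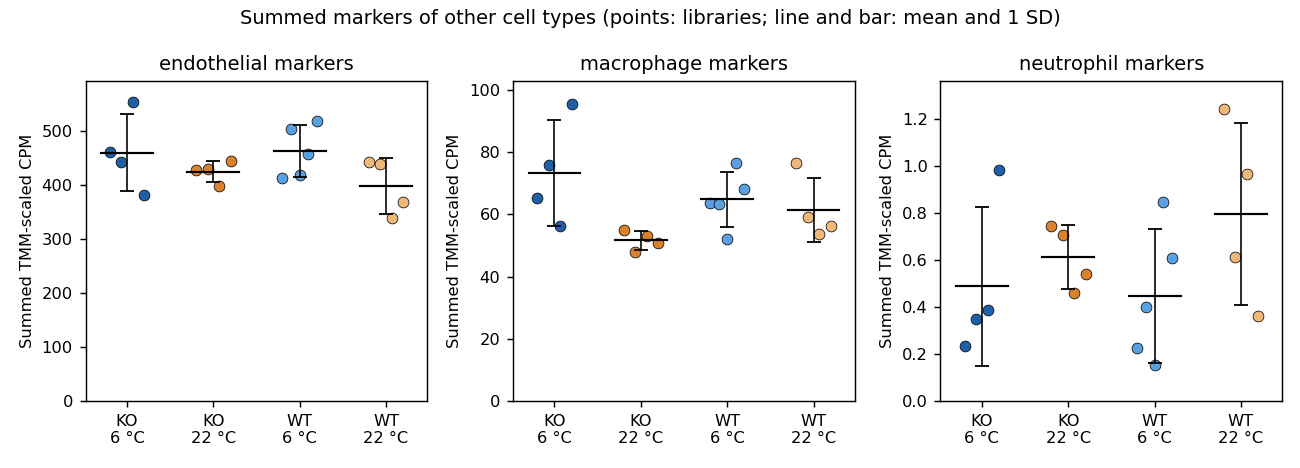
Summed TMM-scaled CPM (vertical axes, from 0) of 8 endothelial, 9 macrophage and 7 neutrophil markers per library, with the group mean and 1 SD. Endothelial sums lie at 340 to 553 CPM in all groups, whereas neutrophil sums stay at or below 1.24 CPM.

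Nfkbia encodes IkB alpha, the inhibitor that NF-kB itself switches on and that returns the factor to the cytoplasm. Its level was 25.1, 42.8, 31.8 and 28.1 CPM in knockouts at 6 °C, against 19.4, 16.2, 15.97 and 34.5 CPM in knockouts at 22 °C. It was 29.3, 27.2, 24.1, 37.3 and 25.7 CPM in wild types at 6 °C, against 14.4, 17.9, 21.0 and 15.4 CPM in wild types at 22 °C. In wild types every cold mouse lay above every 22 °C mouse, as in 12.9% of all tested genes. Nfkbia rose in wild types by 0.76 ± 0.22 log2 (edgeR adjusted p = 0.0153). In knockouts the value was 0.57 ± 0.22 log2 and did not pass (adjusted p = 0.0834). The overlap there came from knockout 22 °C replicate 4, at 34.5 CPM, and without it Nfkbia rose in knockouts as well (0.88, adjusted p = 0.00457). DESeq2 called it in knockouts with all libraries (0.58, adjusted p = 0.0485).

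Tnfaip3 encodes A20, a ubiquitin-editing enzyme that shuts off signalling from the tumour necrosis factor receptor. Its level was 0.869, 1.04, 1.16 and 0.821 CPM in knockouts at 6 °C, against 2.36, 0.834, 1.95 and 1.83 CPM in knockouts at 22 °C. It was 0.623, 0.651, 0.737, 0.813 and 0.926 CPM in wild types at 6 °C, against 1.06, 1.60, 1.51 and 0.986 CPM in wild types at 22 °C. Every cold wild type lay below every wild type at 22 °C, as in 12.8% of all tested genes, whereas the knockout groups overlapped through knockout 22 °C replicate 2. Tnfaip3 fell by 0.84 on the log2 scale in knockouts (edgeR adjusted p = 0.0482) and by 0.78 in wild types (adjusted p = 0.0444). Both calls lay close to the threshold, and 22 of 28 alternatives ended that in knockouts and 12 of 28 that in wild types, with values from -1.07 to -0.14 and from -0.89 to -0.12 log2. These ranges take in limma on log2 of RPKM plus 1 or 0.1. Beside a Tnfaip3 mean of 0.163 RPKM, the added constant shrinks any log2 change. Leaving out a library ended the knockout call for 15 of the 17 libraries, all but knockout 22 °C replicate 2 and knockout 6 °C replicate 3 (adjusted p 0.0533 to 0.205). It ended the wild-type call for 8, wild type 22 °C replicates 2 and 3, wild type 6 °C replicates 1 to 4, knockout 22 °C replicate 3 and knockout 6 °C replicate 2 (adjusted p 0.0517 to 0.167).

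Relb encodes the NF-kB subunit of the slower, non-canonical branch, whose gene is itself a target of the pathway. Its level was 3.78, 3.52, 2.93 and 4.17 CPM in knockouts at 6 °C, against 4.05, 5.36, 4.62 and 3.79 CPM in knockouts at 22 °C. It was 2.04, 3.94, 2.21, 3.19 and 3.36 CPM in wild types at 6 °C, against 2.99, 5.33, 4.96 and 4.40 CPM in wild types at 22 °C. The groups overlapped in both genotypes. Relb fell by 0.56 on the log2 scale in wild types (edgeR adjusted p = 0.0400), a call that 12 of 28 alternatives ended, and its value in knockouts was -0.30 ± 0.21 (adjusted p = 0.340). Leaving out wild type 22 °C replicate 2, 3 or 4, wild type 6 °C replicate 1 or 3, knockout 22 °C replicate 1 or 3 or knockout 6 °C replicate 2 ended the wild-type call, with adjusted p of 0.0509 to 0.140.

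The sum of 5 mast cell markers was lower in the cold in both genotypes, and Kit carried it. The sum ran from 2.95 to 5.91 CPM in knockouts at 6 °C, against 9.56 to 11.4 CPM at 22 °C. In wild types it ran from 3.97 to 7.12 CPM at 6 °C, against 8.87 to 19.2 CPM at 22 °C. No cold sum reached the 22 °C sums of its genotype. Of the 5, Kit, which other cells also express, fell by 2.10 on the log2 scale in knockouts and by 2.13 in wild types, and none of the proteases Cpa3, Cma1, Tpsb2 and Mcpt4 passed. In knockouts Cpa3, Cma1 and Tpsb2 read 0.38 ± 0.40, 0.33 ± 0.50 and 0.41 ± 0.42 log2 and Mcpt4 -0.29 ± 0.43. In wild types the proteases read from -0.42 to -0.17 log2. The T and B cell sum was 0.702 to 2.10 CPM in knockouts at 6 °C, 1.26 to 1.96 in knockouts at 22 °C, 0.397 to 1.07 in cold wild types and 1.42 to 2.46 in the 22 °C wild types. Neither cell type's part in the Tnfaip3 and Relb results was tested.

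**Figure D4:**
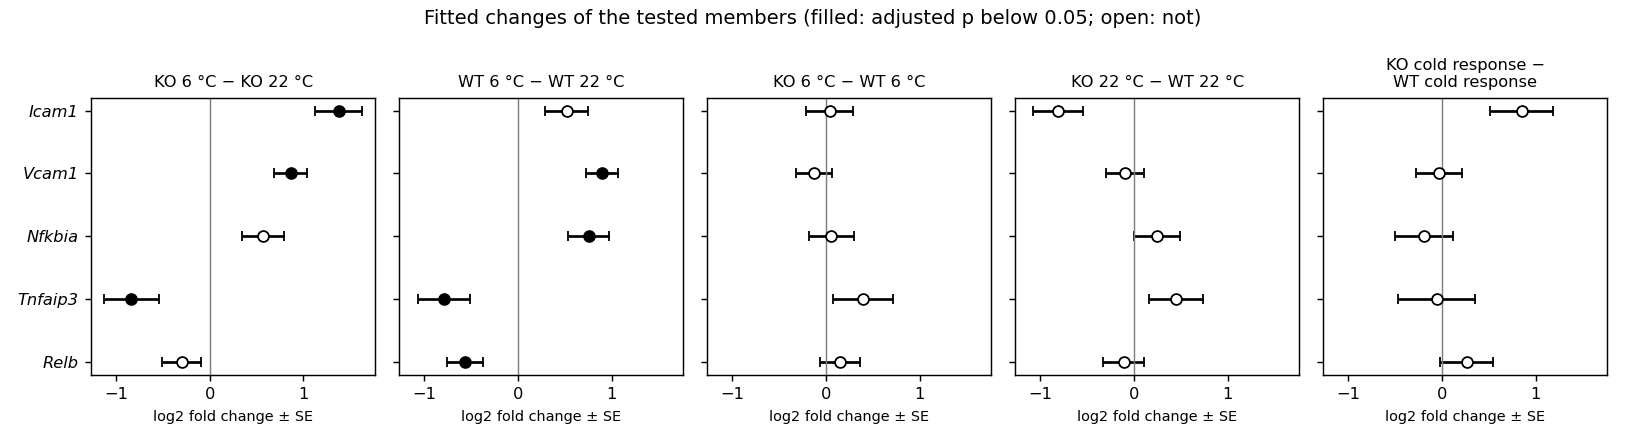
Fitted log2 fold changes ± SE (horizontal axes) of the 5 tested members for the cold response in knockouts and in wild types, the knockout minus wild-type difference at 6 °C and at 22 °C, and the difference between the cold responses. Filled points have an adjusted p below 0.05, and all 15 points of the last 3 comparisons are open.

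For the 5 tested members edgeR called 0 genotype differences at 6 °C, 0 at 22 °C and 0 differences between the cold responses, as did DESeq2 and limma. At an unadjusted p below 0.05 there were 0 at 6 °C, 1 at 22 °C and 1 for the cold responses, each of them Icam1, beside 3.15%, 3.89% and 2.48% of all tested genes. After adjustment these comparisons called 0.04%, 0.016% and 0.00801% of all tested genes. At 6 °C the other differences, knockout minus wild type, were -0.13 ± 0.19 log2 for Vcam1, 0.06 ± 0.24 for Nfkbia, 0.40 ± 0.32 for Tnfaip3 and 0.16 ± 0.21 for Relb. At 22 °C they were -0.09 ± 0.20 for Vcam1, 0.25 ± 0.24 for Nfkbia, 0.45 ± 0.29 for Tnfaip3 and -0.11 ± 0.22 for Relb. The Vcam1 means of the genotypes lay within 1 SD of each other at both temperatures, at 8.89 ± 1.48 CPM in knockouts and 8.89 ± 1.16 CPM in wild types in the cold.

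The feedback genes Nfkbia and Tnfaip3, which moved in opposite directions in wild types, were compared in their promoters, with Icam1 and Il6 shown beside them as a cold-responsive member and as one that is nearly silent. RefSeq promoters on GRCm38.p6 were found for 7 of the 10 members, and the 250 bases before each start were searched on both strands for the NF-kB consensus, a degenerate motif of 10 letters. Among all 32851 promoters of that length, 7.25% held it. A full match was found in 4 of the 7 genes, Nfkbia, Tnfaip3, Il6 and Cxcl1, and not in the windows of Icam1, Tnf and Il1b. Near matches, such as tggaaattcc in the Icam1 window, were not counted. In the sequences, 5′ to 3′ on the gene's strand and ending at the base before the start, capitals mark the match.
Nfkbia, chr12:55492648-55492897, minus strand: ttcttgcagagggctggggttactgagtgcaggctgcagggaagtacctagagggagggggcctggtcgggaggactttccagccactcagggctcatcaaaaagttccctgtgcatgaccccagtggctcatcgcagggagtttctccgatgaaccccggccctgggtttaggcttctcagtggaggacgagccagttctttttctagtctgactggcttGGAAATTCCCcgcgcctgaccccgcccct
Il6, chr5:30012864-30013113, plus strand: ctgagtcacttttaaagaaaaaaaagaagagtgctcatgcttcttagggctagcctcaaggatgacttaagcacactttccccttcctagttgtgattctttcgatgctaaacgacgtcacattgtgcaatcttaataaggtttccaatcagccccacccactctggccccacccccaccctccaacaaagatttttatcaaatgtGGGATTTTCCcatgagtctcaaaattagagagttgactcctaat
Icam1, chr9:21015690-21015939, plus strand: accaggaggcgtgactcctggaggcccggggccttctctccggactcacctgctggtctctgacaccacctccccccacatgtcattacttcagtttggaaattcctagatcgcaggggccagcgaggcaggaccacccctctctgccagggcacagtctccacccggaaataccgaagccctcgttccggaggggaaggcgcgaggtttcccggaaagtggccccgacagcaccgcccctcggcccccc

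The match began 29 bases before the start in Nfkbia and 44 bases before it in Il6. Tnfaip3 held a match 125 bases and another 12 bases before its first listed start, and its second listed start had none. Only the sites with 10 bases on either side are given, since GENCODE places a start of this gene further upstream.
Tnfaip3, site at 125, chr10:19015516-19015545, minus strand: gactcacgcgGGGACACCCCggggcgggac
Tnfaip3, site at 12, chr10:19015403-19015432, minus strand: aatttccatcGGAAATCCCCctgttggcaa
Cxcl1 held a pair of overlapping matches, GGGAATTTCC and GGAATTTCCC, which began 71 and 70 bases before its start. Promoters with the motif thus belonged to a member that rose in wild-type cold, to one that fell in both genotypes and to 2 that stayed near 0 reads. A match describes letters only, and no factor binding was measured.

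On GRCm38 (GENCODE vM21), Icam1 lies at chr9:21015985-21028817 on the plus strand and overlaps Gm47079 on the minus strand. Vcam1 lies at chr3:116109949-116129688 on the minus strand and overlaps Gm43109 on the plus strand. Nfkbia (chr12:55489410-55492647), Tnfaip3 (chr10:19000910-19015657) and Relb (chr7:19606217-19629438), all on the minus strand, overlap no annotated gene. Among the members near the detection limit, Il1b overlaps Il1bos and Ccl2 overlaps Gm17268, each on the opposite strand. Whether the counting used strand is not stated. How reads in the overlaps of Icam1, Vcam1, Il1b and Ccl2 were assigned or left out is thus not known.

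The rest of the pathway was read from 7 lists with 86 genes, of which 69 were tested. In knockouts 11 rose and 3 fell in the cold, and in wild types 7 rose and 9 fell, where 21.6% and 27.6% of all tested genes were called. DESeq2 called 17 and 21, and limma on log2(RPKM + 1) called 9 and 22. No gene of the lists passed in edgeR, DESeq2 or limma between genotypes at 6 °C or 22 °C or between the cold responses. At an unadjusted p below 0.05 edgeR had 3, 0 and 3 genes.

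Among NF-kB subunits, none of 4 passed in either genotype in edgeR, where 2 had an unadjusted p below 0.05 in each, beside 33.8% of all tested genes in knockouts and 39.6% in wild types. DESeq2 called 0 in each, and limma on log2(RPKM + 1) called 0 in knockouts and 2 in wild types. Rela, the main activating subunit, averaged 23.6 ± 4.64 CPM at 6 °C and 18.4 ± 3.97 CPM at 22 °C in knockouts, and 24.6 ± 2.83 and 19.5 ± 3.39 CPM in wild types. Nfkb1, which encodes its partner p50, averaged 17.4 ± 0.945 and 17.97 ± 2.78 CPM in knockouts, and 17.1 ± 0.842 and 20.2 ± 0.805 CPM in wild types.

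Of 12 tested IkB and kinase genes, 3 rose in knockouts and 2 in wild types, beside 21.6% and 27.6% called among all tested genes. Chuk, which encodes the kinase IKK alpha, rose by 0.44 ± 0.12 log2 in knockouts and 0.40 ± 0.12 in wild types. Ikbkb, which encodes IKK beta, the main kinase that marks IkB, was picked out after its values were seen and read 0.03 ± 0.10 in knockouts and -0.01 ± 0.10 in wild types. Nfkbib, which encodes IkB beta, rose in knockouts by 0.74 ± 0.18 and Tab3 by 0.50 ± 0.14, a call lost in 6 of 28 alternatives, and in wild types Tab2 rose by 0.37 ± 0.09. The values that did not pass were 0.31 ± 0.17 for Nfkbib and 0.28 ± 0.14 for Tab3 in wild types, and 0.23 ± 0.09 for Tab2 in knockouts. Tab2 and Tab3 link the receptors to the kinase Map3k7.

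Of 18 tested receptor and adaptor genes, 3 rose in knockouts, and 3 rose and 2 fell in wild types, while the other 13 did not pass in wild types. These counts stand beside the 21.6% and 27.6% called among all tested genes. Tnfrsf1a, the main receptor for tumour necrosis factor, rose to 70.9 ± 12.3 CPM in cold knockouts, against 41.8 ± 5.93 CPM at 22 °C (0.76 ± 0.15 log2, edgeR adjusted p = 0.00212). In wild types it rose to 73.9 ± 12.4 CPM in the cold, against 48.2 ± 7.27 CPM at 22 °C (0.63 ± 0.15, adjusted p = 0.00437). Il1r1, the signalling receptor for interleukin 1, rose by 0.68 ± 0.17 in knockouts and 0.71 ± 0.16 in wild types, and the adaptor ligase Traf6 by 0.43 ± 0.10 and 0.38 ± 0.09. In wild types Ccr2, the receptor for Ccl2, fell to 1.38 ± 0.768 CPM in the cold, against 3.31 ± 1.06 CPM at 22 °C. Its value in knockouts was -0.20 ± 0.31 log2 (edgeR adjusted p = 0.709). The Ccr2 cold responses differed by 1.12 ± 0.43 log2, knockout minus wild type (edgeR unadjusted p = 0.0179), which did not pass after adjustment. The adaptor Tradd fell to 0.519 ± 0.127 CPM in cold wild types, against 1.10 ± 0.192 CPM at 22 °C. Its value in knockouts, -0.67 ± 0.33 log2, did not pass. With limma on RPKM, scaled to total counts, Traf6 did not pass in either genotype and Tnfrsf1a did not pass in wild types.

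Of 11 tested feedback and ubiquitin-editing genes, 3 rose in knockouts, and 1 rose and 3 fell in wild types. Among all tested genes 21.6% were called in knockouts and 27.6% in wild types. Tax1bp1, a partner of A20, rose by 0.45 ± 0.13 log2 in knockouts and 0.58 ± 0.13 in wild types. Tnfaip2 and the linear-ubiquitin protease Otulin rose in knockouts by 1.26 ± 0.41 and 0.49 ± 0.15. In wild types they read 0.68 ± 0.37 and 0.35 ± 0.14 and did not pass. In wild types Tnip1, another A20 partner, fell by 0.69 on the log2 scale, Rbck1, a subunit of the linear-ubiquitin ligase, by 0.54, and Il1rn, the interleukin 1 receptor antagonist, by 1.06. Their knockout values were -0.40 ± 0.21, -0.29 ± 0.16 and -0.98 ± 0.40 log2 and did not pass. Of 28 alternatives, 9 ended the call of Tnfaip2, 5 that of Tax1bp1 in knockouts, 4 that of Otulin, 6 that of Il1rn, 4 that of Tnip1 and 1 that of Rbck1.

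Of the 21 other cytokines, chemokines and target genes, 12 did not pass the low-count filter. Cxcl5 and Csf3, picked out after their values were seen, had 0 reads in all 17 libraries, which allows up to 0.00581 CPM. Among the 9 tested, Il15 fell to 0.689 ± 0.289 CPM in cold knockouts, against 1.51 ± 0.107 CPM at 22 °C, and to 0.572 ± 0.217 CPM in cold wild types, against 1.45 ± 0.306 CPM at 22 °C. The knockout call of Il15 was lost in 5 of 28 alternatives. No other gene of this list passed. Among 9 tested adhesion and integrin genes, Jam2, a junction protein, fell by 0.63 on the log2 scale in knockouts and by 0.47 in wild types. Icam2, a relative of Icam1 in the endothelium, rose in knockouts by 0.52 ± 0.17, a call that 10 of 28 alternatives ended (adjusted p up to 0.131). Its value in wild types, 0.41 ± 0.16, did not pass.

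Genes that set the decay of cytokine mRNA included a pair that moved in both genotypes. Zc3h12a encodes Regnase-1, a ribonuclease that degrades Il6 mRNA and is itself a target of NF-kB. It fell to 2.51 ± 0.601 CPM in cold knockouts, against 5.31 ± 0.764 CPM at 22 °C (-1.09 ± 0.21 log2, edgeR adjusted p = 0.00136), and to 2.31 ± 0.566 CPM in cold wild types, against 5.19 ± 1.02 CPM at 22 °C (-1.17 ± 0.19, adjusted p = 0.000375). Elavl1 encodes HuR, an RNA-binding protein that stabilises AU-rich mRNAs, and rose by 0.69 ± 0.12 in knockouts and 0.74 ± 0.12 in wild types. Zfp36l1, of the family that destabilises such mRNAs, fell by 0.60 on the log2 scale in wild types, a call that 7 of 28 alternatives ended (adjusted p up to 0.0861). Its value in knockouts, -0.38 ± 0.21 log2, did not pass. Of the 6 genes, 1 rose and 1 fell in knockouts, and 1 rose and 2 fell in wild types. Among all tested genes 21.6% were called in knockouts and 27.6% in wild types.

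**Figure D5:**
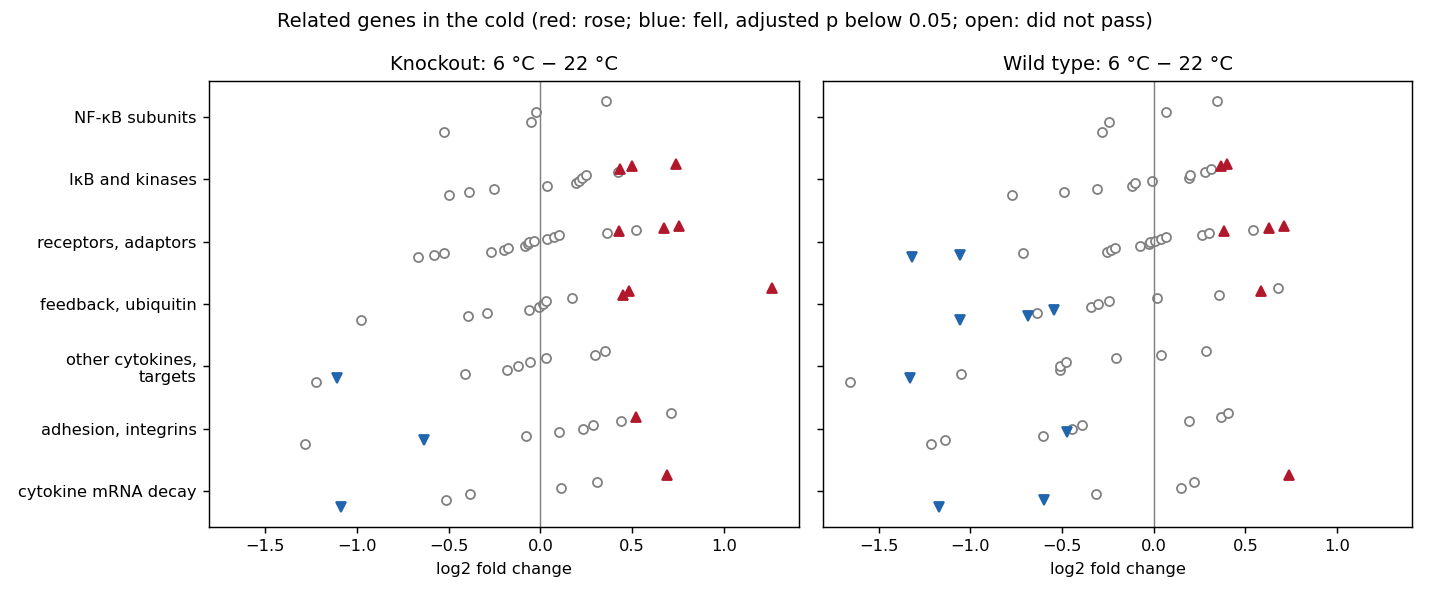
Log2 fold changes in the cold (horizontal axes) of the 69 tested genes in 7 related lists, in knockouts and in wild types. Upward triangles are genes that rose and downward triangles genes that fell, 11 and 3 in knockouts and 7 and 9 in wild types, and open circles did not pass.

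The genes whose levels over the 17 libraries were most like a member's were ranked by the root mean square difference of standardised log2 CPM, where 0 is an identical pattern. The nearest to Vcam1 were Zdhhc13 (0.317), Gcnt2 (0.344) and Pigr (0.361). Relb was nearest to Sulf2 (0.365), and Nfkbia to Cops5 (0.404) and Psma6 (0.451). For Icam1 the nearest were Cln8 (0.479), Nabp1 (0.488) and Vdr (0.504), and for Tnfaip3 Inip (0.472). No other member was among the 3 genes nearest to any of the 5.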

How the data were processed

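For 17 libraries, 1 per mouse, the authors deposited raw read counts per gene symbol and RPKM values. The submitters' processing notes name STAR, HTSeq, mm10 and GRCm38.p6, without versions, annotation or strand setting. Deposited RPKM equalled counts divided by column total and a fixed gene length, to a relative spread of at most 9.57e-15 in 12960 genes.

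Deposited counts were fitted in R 4.3.3 by edgeR 4.0.16 with TMM scaling. The function filterByExpr, given the 4 groups, retained 12486 genes. A single quasi-likelihood model had 1 coefficient per group plus labelled sex (12 residual degrees of freedom). SE is the absolute log2 fold change over the square root of F. P values were adjusted by Benjamini-Hochberg over the 12486 genes and called below 0.05. The procedure was tested on simulated counts. Levels are TMM-scaled CPM.

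Alternatives changed the scaling (DESeq2 size factors), the filter (none, or at least 1 CPM in 4 libraries), the test (DESeq2 1.42.0, or limma 3.58.1 on log2 of RPKM plus 1 or 0.1) and the terms (no sex, sex with age, or a replicate block with sex). Others kept the compared groups, or the majority sex of each genotype, or left out each library.

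All 10 members are reported. From each related list and cold comparison, up to 4 passing genes with the largest change are named, or up to 2 with the highest level where none passed. Members, lists and alternatives were chosen with earlier results of these data known.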

Additional observations from a re-analysis of the deposited data

Results flagged for a closer look

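Dixon's test at 95% was applied to each member's CPM in each group, in 38 groups with any spread. Chance marks about 1 in 20 among normally distributed values, a rate that does not hold for counts near 0. A library that alone holds reads in its group is marked whatever its count, as were both Il6 values and the Tnf value. The test marked 4 values in 3 libraries, all in genes near the detection limit. Cxcl1 in wild type 22 °C replicate 1 stood at 0.329 CPM, from 13 reads, with the next library at 0.0962 CPM. Il6 in the same library stood at 0.0507 CPM, from 2 reads, with the other wild types at 22 °C at 0. Il6 in wild type 6 °C replicate 5 stood at 0.0289 CPM, from 1 read, with the others at 0. Tnf in knockout 6 °C replicate 4 stood at 0.131 CPM, from 4 reads, with the others at 0.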

How the results depend on the processing

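In wild-type cold, 4 of 5 tested members were called. The count was 2 with no filter on low counts, 2 with sex and labelled age and 1 in the majority sex of each genotype. Calls over all tested genes were 3450 of 12486 in the main model, then 3224 of 17103, 3494 of 12486 and 2366 of 12474. With 1 library left out, the member count ran from 2 to 5, beside 2605 to 3872 calls over all tested genes. The member count was 5 without wild type 22 °C replicate 1, which added Icam1. In knockout cold it was 3, and 2 to 3 with 1 library left out, beside 1961 to 2834 calls over all tested genes. The cause was not tested. The genotype comparisons and the difference between the cold responses had 0 called members under every alternative run, and no member's cold response changed sign. The calls of Vcam1 in both genotypes and of Icam1 in knockouts held in all 28 alternatives, and Nfkbia in wild types lost its call in the majority sex alone (adjusted p = 0.0503).

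Deviations from the group mean in samples with the same replicate number had correlations from -0.43 to 0.49. Samples with different numbers were not compared, so this cannot decide whether the numbers mark pairs. The main model did not pair them. With the replicate block and sex, 2 members were called in knockout cold and 3 in wild-type cold, beside 2220 and 2609 of 12486 tested genes. In the genotype comparisons and the difference between the cold responses 0 members were called.

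For all tested genes in knockout cold, 2697 calls became 1589 with the compared groups alone and 1647 in the majority sex. DESeq2 called 12 genes between genotypes at 6 °C and 10 at 22 °C, against 5 and 2 by edgeR. The reads limit Il6, Tnf, Il1b, Ccl2 and Cxcl1, each at most 13 counts per library.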
